A study of Drosophila melanogaster with 6 samples.

Results

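The aminoacyl-tRNA synthetase genes of *Drosophila melanogaster* were followed in lysates enriched for body-wall muscle, taken from third-instar larvae at the wandering stage, in which Mad, the transcription factor that carries the BMP signal to the nucleus, was knocked down. Members were chosen by symbol alone, as every gene of the deposited table named for an amino acid followed by RS, with or without the suffix -m for the mitochondrial enzyme. The rule found 35 genes, 20 cytoplasmic and 15 mitochondrial, of 17807 genes in the table. The 3 Mad knockdown samples had the genotype Dmef2-Gal4>UAS-madRNAi and the 3 control knockdown samples Dmef2-Gal4>UAS-mCherryRNAi, a hairpin with no target among the fly's own genes. Both groups therefore carried the Dmef2-Gal4 driver, which is active in muscle. The data do not show whether the hairpins were also expressed in other tissues of the lysate. Each sample pooled 6 to 10 larvae, and larval sex is not stated. The labels do not say whether the samples came from separate crosses or days, so p-values measure the spread between these samples only.

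Aminoacyl-tRNA synthetases attach each amino acid to its transfer RNA, and the ribosome then reads the charged tRNA. Animals keep one set of nuclear genes for the cytoplasm and another, partly overlapping, for the mitochondrial matrix, where the proteins of the respiratory chain encoded in mitochondrial DNA are made. Larval muscle grows by adding cytoplasm to fibres that no longer divide, so its protein synthesis draws on both sets. The enzymes fall into a pair of unrelated structural classes, and several cytoplasmic ones sit in a multisynthetase complex built on the scaffold proteins AIMP1, AIMP2 and AIMP3, as known from mammals.

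The set in the table had no -m gene for glycine, histidine, lysine, threonine or glutamine, which are 5 of the amino acids with a cytoplasmic gene. For several of these the cytoplasmic gene is known to supply both compartments in animals, and mitochondrial glutaminyl-tRNA is made from glutamyl-tRNA by the GatA, GatB and GatC amidotransferase. GluProRS encodes the fused enzyme for glutamate and proline, whereas the mitochondrial enzymes GluRS-m and ProRS-m have a gene each. Phenylalanyl-tRNA synthetase has 2 cytoplasmic subunit genes, alpha-PheRS and beta-PheRS, and a single mitochondrial gene. In the Ensembl 115 annotation of BDGP 6.54, 10 members lay on 3L, 8 on 2R, 7 on 3R, 6 on 2L and 4 on X. The 4 on X, LysRS, HisRS, alpha-PheRS and ArgRS, were all cytoplasmic. The closest pair was TyrRS (3L, 16417349 to 16419302) and GluRS-m (3L, 16415292 to 16417177), which lie on the minus strand with 171 bases between them. The next closest pair, PheRS-m and CysRS-m on 2R, was 189193 bases apart.

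Gene counts were recovered from the deposited normalized counts and summed to between 109301864 and 127220949 in the Mad knockdown libraries, against 96639921 to 124490149 in the control knockdown libraries. Single members had 141 to 11755 reads per library. Mad itself had 4348, 5643 and 5053 normalized counts in Mad knockdown samples and 7533, 7658 and 7010 in control knockdown samples, which do not overlap. Its mean was 5015 ± 648 in Mad knockdown and 7400.2 ± 344 in control knockdown (SD, n = 3 each), and limma gave a log2 fold change of -0.57 ± 0.102 (SE) at an adjusted p of 0.0440. This call was lost in edgeR (adjusted p = 0.0516), without the eBayes trend (0.0981), with a replicate block (0.0787) and in 5 of 6 fits that left out 1 library. The exact two-sided permutation test over the 6 libraries gave 0.1, the smallest p that 3 against 3 allows. Muscle genes were present in every library, but the summed level of the 9 listed muscle markers ranged from 1138102 to 1713123 in Mad knockdown and from 2382041 to 3369525 in control knockdown. Of these 9, 8 had estimates below 0, 7 had every Mad knockdown library below the control range, against 13% of tested genes, and 1, Tm2, was called, against 2.59%. In bulk lysates, fewer muscle cells and less of these RNAs per cell cannot be told apart. The sums of 6 salivary gland markers were 29.0 to 147 in Mad knockdown and 297 to 2573 in control knockdown, with all 5 tested markers below 0. The 5 haemocyte markers summed to 77623 to 84237 in Mad knockdown and 89621 to 122604 in control knockdown, with 4 of 5 below 0. Sums of fat body, nervous system, epidermis and midgut markers overlapped between the groups, and those of testis markers were 101 to 137 in Mad knockdown and 84.8 to 95.2 in control knockdown, with Mst84Da and aly at 0. The midgut sums were 97.1 to 4054 in Mad knockdown and 39.2 to 137 in control knockdown, with Jon99Ciii at 0. No marker of these other tissues was called. The part of these differences in the synthetase values below was not tested.

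All 35 genes were among the 10348 that passed the filter of at least 10 normalized counts in at least 3 of 6 libraries. Levels between genes are compared here as normalized counts per kilobase of annotated exon. This length takes in every annotated exon, whether or not it was used in these samples, so the order depends on it. The cytoplasmic genes had a median of 1793 per kilobase in Mad knockdown and 1754 in control knockdown, and the mitochondrial genes 304.5 in Mad knockdown and 303.1 in control knockdown. The highest was TyrRS, the tyrosyl enzyme, at 5715 ± 305 per kilobase in Mad knockdown and 5692 ± 173 in control knockdown (SD, n = 3 each). The lowest cytoplasmic gene was LeuRS, the leucyl enzyme, at 814 ± 101 per kilobase in Mad knockdown and 820.1 ± 42.2 in control knockdown. The order from the top, over all 6 libraries, was TyrRS, SerRS, AsnRS, ThrRS, LysRS, AlaRS, HisRS, GlyRS, GlnRS, alpha-PheRS, ArgRS, beta-PheRS, CysRS, AspRS, ValRS, IleRS, TrpRS, MetRS, GluProRS and LeuRS. Of the 19 neighbouring pairs in this order, 15 had overlapping ranges over the 6 libraries. The 4 that did not were TyrRS and SerRS, SerRS and AsnRS, GlyRS and GlnRS, and ArgRS and beta-PheRS.

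PheRS-m led the mitochondrial genes with 1204 ± 98.5 per kilobase in Mad knockdown and 1196 ± 38.7 in control knockdown (SD, n = 3 each), above the means of the cytoplasmic TrpRS, MetRS, GluProRS and LeuRS in both groups. AspRS-m came next at 913 ± 76.4 in Mad knockdown and 882 ± 31.1 in control knockdown. The order then ran through TyrRS-m, AlaRS-m, CysRS-m, TrpRS-m, SerRS-m, LeuRS-m, AsnRS-m, ArgRS-m, IleRS-m, ProRS-m, GluRS-m and ValRS-m to MetRS-m, at 74.4 ± 14.7 per kilobase in Mad knockdown and 67.1 ± 11.1 in control knockdown. Of the 14 neighbouring pairs, 10 overlapped. PheRS-m and AspRS-m, AspRS-m and TyrRS-m, AsnRS-m and ArgRS-m, and GluRS-m and ValRS-m were apart.

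**Figure D1:**
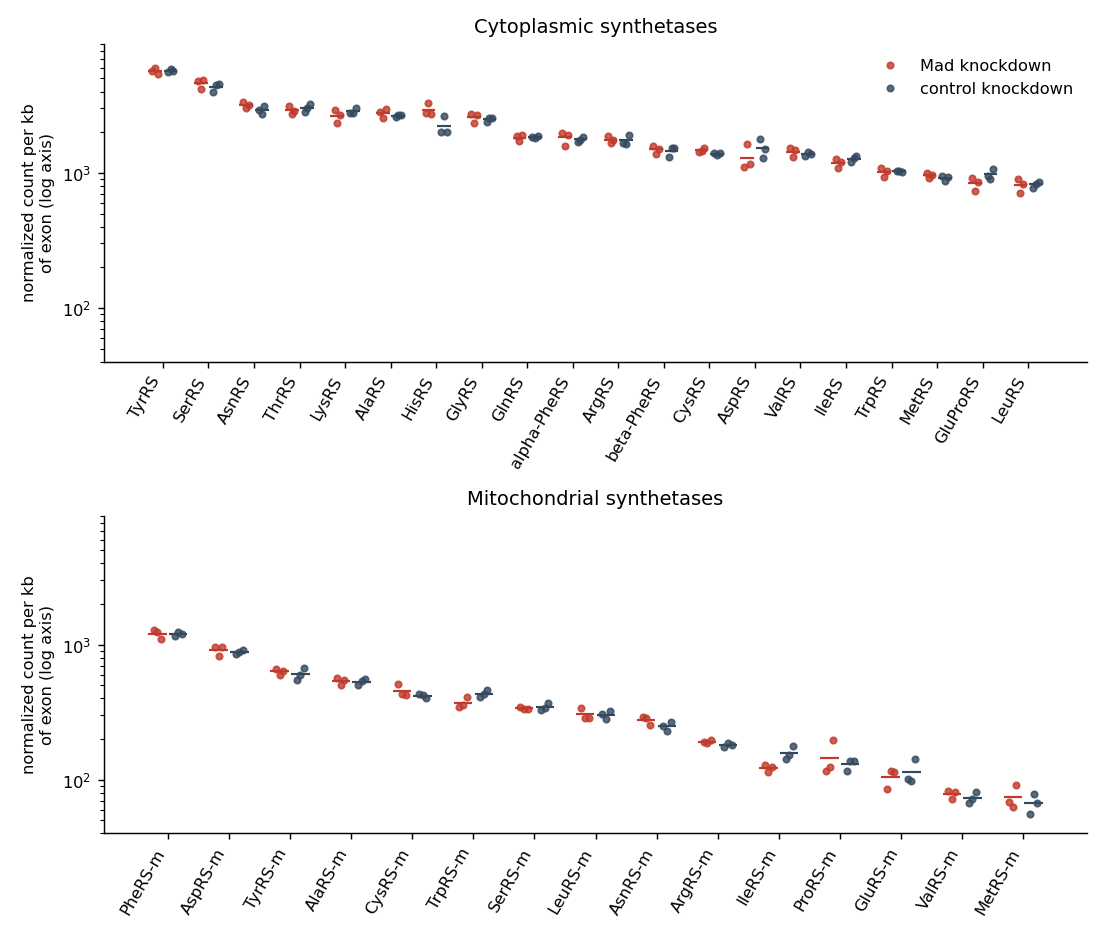
Level of each synthetase gene in each library, as normalized counts per kilobase of exon on a log axis, with cytoplasmic genes above and mitochondrial genes below, ordered by level. Points are libraries (Mad knockdown left in red, control knockdown right in dark grey) and short bars are group means, and the levels run from 5715 for TyrRS to 74.4 for MetRS-m in Mad knockdown.

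Within an amino acid, the cytoplasmic gene stood above its mitochondrial partner in all 16 pairings and all 6 libraries, by ratios that differed widely between amino acids. The ratio per kilobase was greatest for valine, at 18.3 ± 0.181 in Mad knockdown and 18.9 ± 1.58 in control knockdown (SD, n = 3 each). Methionine followed at 13.2 ± 2.27 in Mad knockdown and 14.04 ± 2.92 in control knockdown, and serine at 13.6 ± 1.004 in Mad knockdown and 12.5 ± 0.545 in control knockdown. The ratio was lowest for phenylalanine, where beta-PheRS stood 1.24 ± 0.127 times above PheRS-m in Mad knockdown and 1.21 ± 0.0671 times in control knockdown, and for aspartate, at 1.45 ± 0.458 in Mad knockdown and 1.74 ± 0.320 in control knockdown. The AspRS value carries a limit, given with that gene below. Of the 16 ratios, 15 overlapped between the groups. The exception was isoleucine, whose ratio was 9.90, 9.55 and 9.77 in Mad knockdown and 8.41, 8.40 and 7.54 in control knockdown. The same values of IleRS-m enter that ratio and the difference described for the gene itself.

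Between the groups, no synthetase gene passed the threshold of a Benjamini-Hochberg adjusted p under 0.05 in limma. Over all 10348 tested genes, 268 were called, 106 higher and 162 lower, which is 2.59%. That share of 35 genes would be 0.906 genes, so a count of 0 does not set the synthetases apart from the rest. With an unadjusted p under 0.05 there were 2 members, against 19% of tested genes. HisRS was the 1 above 0, against 8.31% of tested genes, and IleRS-m the 1 below 0, against 10.7%. In edgeR, which called 252 genes (2.44%), no member was called. In DESeq2, which called 998 of 10120 genes (9.86%), 1 member was called, HisRS.

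The estimates were small and most were bounded closely. The median log2 fold change was 0.03 over the 20 cytoplasmic genes, of which 12 were above 0, and 0.05 over the 15 mitochondrial genes, of which 11 were above 0. The median over all tested genes was 0.0054. The Mad knockdown mean lay within 10% of the control mean for 17 of 20 cytoplasmic and 10 of 15 mitochondrial genes, and for 48.8% of tested genes. For 29 of the 35 members (82.9%) the whole 95% interval of the fold change lay within 1.5-fold in either direction, 18 of 20 cytoplasmic and 11 of 15 mitochondrial. The share was 57.3% over all tested genes and 76.2% over the 6074 tested genes whose mean level fell within the range of the members, 187 to 10101 normalized counts. The median absolute log2 fold change was 0.0758 over the members, 0.107 over those genes of like level and 0.149 over all tested genes. The 6 members with a bound outside 1.5-fold were HisRS, AspRS, IleRS-m, ProRS-m, GluRS-m and MetRS-m.

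**Figure D2:**
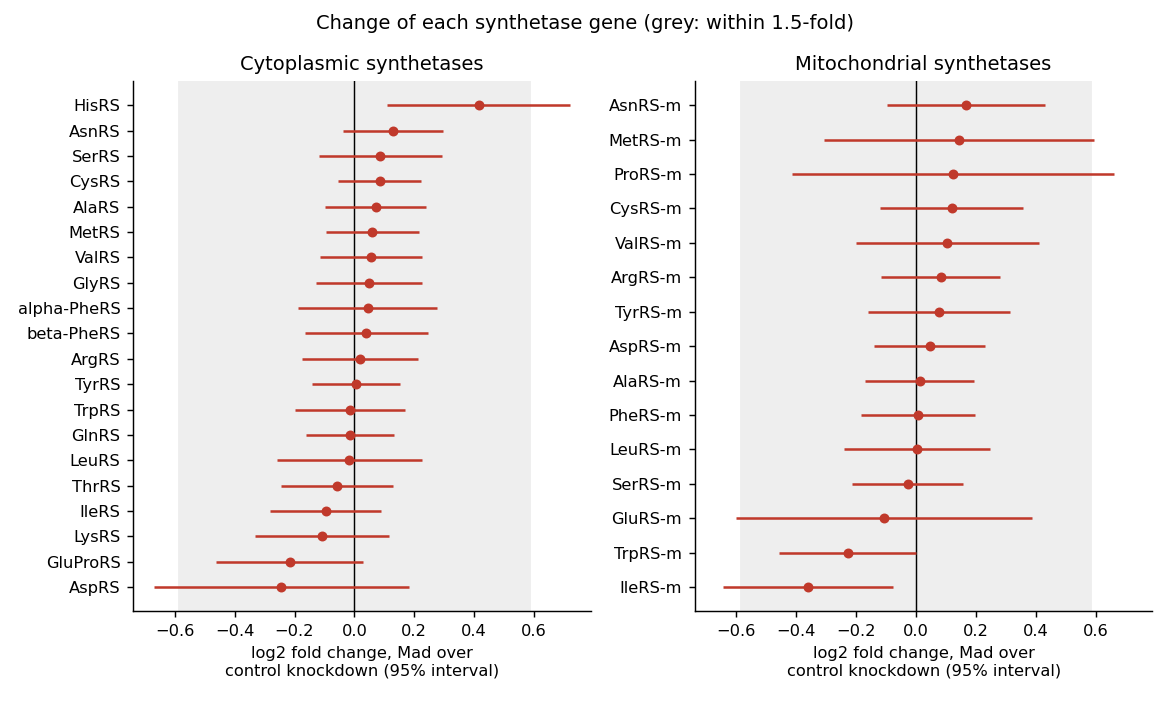
Log2 fold change of each synthetase gene, Mad over control knockdown, with its 95% interval from limma, cytoplasmic genes in the left panel and mitochondrial genes in the right. The grey band marks changes within 1.5-fold, and 29 of 35 intervals lie wholly inside it. HisRS at 0.41 and IleRS-m at -0.36 stand farthest from 0, and no gene passed the adjusted threshold.

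The groups did not overlap for 4 of the 35 genes (11.4%), HisRS, CysRS and ArgRS-m with every Mad knockdown library above and IleRS-m with every one below, against 24.6% of all tested genes. Every Mad knockdown library was above the control range in 11.6% of tested genes and below it in 13%. HisRS, which charges histidyl-tRNA, had 7993, 9361 and 7788 normalized counts in Mad knockdown and 5742, 7486 and 5721 in control knockdown. Replicate 2 was the highest library of each group, and the lowest Mad knockdown value stood just above the highest control value. The means were 8381 ± 855 in Mad knockdown and 6316 ± 1013 in control knockdown (SD, n = 3 each), a log2 fold change of 0.41 ± 0.128 (SE) with a 95% interval of 0.11 to 0.72. In limma its unadjusted p was 0.0151 and its adjusted p 0.152, and in DESeq2 its adjusted p was 0.0461 at a log2 fold change of 0.41.

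HisRS lies on the plus strand of X at 18515428 to 18520445, and 8.91% of its exon bases also belong to Bx on the same strand. Bx, which encodes a LIM-only protein, was far lower, at 485 ± 81.9 normalized counts in Mad knockdown and 413 ± 61.5 in control knockdown, with a log2 fold change of 0.23 and a limma adjusted p of 0.539. Reads in the shared exon could be counted for either gene.

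IleRS-m, which charges the mitochondrial isoleucyl-tRNA, had 372, 332 and 358 normalized counts in Mad knockdown and 412, 442 and 515 in control knockdown. All 3 Mad knockdown libraries were below the lowest control library. The means were 354 ± 20.3 in Mad knockdown and 457 ± 52.8 in control knockdown (SD, n = 3 each), with a log2 fold change of -0.36 ± 0.118 (SE), a 95% interval of -0.64 to -0.08, an unadjusted p of 0.0198 and an adjusted p of 0.173 in limma. The gene lies on the plus strand of 3L at 16100280 to 16103482 and shares 1.76% of its exon bases with IntS9 on the opposite strand, which had 1297 ± 141 in Mad knockdown and 1358 ± 39.7 in control knockdown. Its cytoplasmic partner IleRS had 4949, 4263 and 4710.5 normalized counts in Mad knockdown and 4661, 4991 and 5219 in control knockdown. The IleRS groups overlapped, with a log2 fold change of -0.10 ± 0.0780 (SE) at an adjusted p of 0.573 in limma.

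TrpRS-m, the mitochondrial tryptophanyl enzyme, had 857, 882 and 1011 normalized counts in Mad knockdown and 1007, 1063 and 1147 in control knockdown. The groups overlapped only through Mad knockdown replicate 3 and control knockdown replicate 1, and the log2 fold change was -0.23 ± 0.0957 (SE) with a limma adjusted p of 0.265. The cytoplasmic TrpRS had 1843, 1574 and 1729 in Mad knockdown and 1747, 1745 and 1694 in control knockdown, with the control range inside the Mad knockdown range. Its log2 fold change was -0.01 ± 0.0767 (SE), with an interval of -0.20 to 0.17.

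GluProRS, the fused glutamyl and prolyl enzyme, had 5008, 4024 and 4687 normalized counts in Mad knockdown and 5182, 4916 and 5816 in control knockdown. The groups overlapped through Mad knockdown replicate 1, and the log2 fold change was -0.22 ± 0.103 (SE) with a limma adjusted p of 0.326. Its mitochondrial counterparts were among the lowest members. ProRS-m had 177, 188 and 300.1 in Mad knockdown and 176, 209 and 209 in control knockdown, so that 1 library set its mean of 221 ± 68.3 in Mad knockdown against 198 ± 19.2 in control knockdown (SD, n = 3 each). GluRS-m had 146, 198 and 194 in Mad knockdown and 172, 167 and 243 in control knockdown, and the groups overlapped. Their 95% intervals, -0.41 to 0.66 for ProRS-m and -0.60 to 0.39 for GluRS-m, were the widest of the set.

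AspRS, the cytoplasmic aspartyl enzyme, had 2493, 3688 and 2639 normalized counts in Mad knockdown and 4039, 2940.4 and 3396 in control knockdown. The groups overlapped, since replicate 2 was the highest Mad knockdown library and the lowest control library. Its log2 fold change was -0.24 ± 0.178 (SE) with a limma adjusted p of 0.528. AspRS shares the largest part of its exon bases of any member, 73.5%, with other annotated genes. These are Nmda1 and the antisense RNA CR45141 on the opposite strand and the antisense RNA CR43468 on the same strand. Nmda1 was higher than AspRS, at 14151 ± 928 in Mad knockdown and 14446 ± 571 in control knockdown, and its groups overlapped. CR45141 averaged 10.9 ± 9.17 in Mad knockdown and 20.9 ± 11.9 in control knockdown. CR43468 averaged 3.83 ± 1.16 in Mad knockdown and 0.304 ± 0.526 in control knockdown. The part of the 73.5% held by each gene was not computed. The strand setting of the count is not given in the sources used here, so reads in exon bases shared by AspRS and Nmda1 cannot be told apart. AspRS-m had 4245, 3646 and 4217 in Mad knockdown and 3767, 3895 and 4042 in control knockdown, with a log2 fold change of 0.05.

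**Figure D3:**
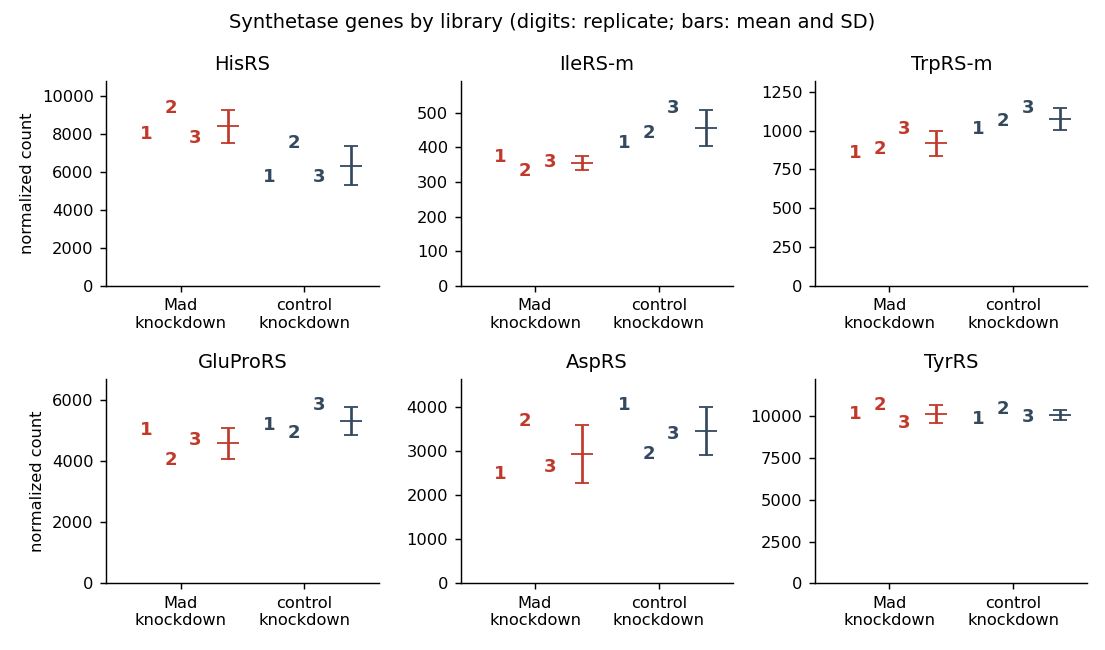
Normalized counts of 6 synthetase genes in each library, Mad knockdown left and control knockdown right, on linear axes from 0. Each digit is the replicate number of a library, and the bars give the mean and SD of 3 libraries. The groups are apart for HisRS (Mad knockdown above) and IleRS-m (Mad knockdown below), and they overlap for TrpRS-m (by 1 library of each group), GluProRS, AspRS and TyrRS.

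Other overlaps over 5% of exon bases were with opposite-strand genes and touched GluProRS (16.6%, an antisense RNA listed at 0), CysRS-m (14.3%), SerRS-m (13.9%), ArgRS-m (11.8%, with mRpS9) and GluRS-m (5.59%, with Serinc). With AspRS and HisRS these are 7 members, and 19 shared no exon base with another gene.

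TyrRS, the highest member, had 10127, 10659.7 and 9579 normalized counts in Mad knockdown and 9842, 10426 and 9973 in control knockdown. Its log2 fold change was 0.00 with a 95% interval of -0.14 to 0.15, and the partner TyrRS-m had 1022, 926 and 983 in Mad knockdown and 838, 916 and 1034 in control knockdown, with overlapping groups. AsnRS, the asparaginyl enzyme, had 7927, 7198 and 7582 in Mad knockdown and 6937, 6490.4 and 7369 in control knockdown, and AsnRS-m had 435, 428 and 378 in Mad knockdown and 372, 340.1 and 394 in control knockdown. Both asparaginyl genes had the higher mean in Mad knockdown with overlapping groups, at log2 fold changes of 0.13 and 0.17 and limma adjusted p-values of 0.395 and 0.487. LysRS, the lysyl enzyme, had 6653, 5312 and 6090.0 in Mad knockdown and 6264, 6275 and 6852 in control knockdown, at a log2 fold change of -0.11.

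CysRS, the cysteinyl enzyme, had 3476, 3560.2 and 3768 in Mad knockdown and 3418, 3325 and 3444 in control knockdown, which do not overlap, yet its log2 fold change was only 0.08 ± 0.0577 (SE). CysRS-m had 1085, 912 and 891 in Mad knockdown and 916, 892 and 843 in control knockdown, at 0.12 ± 0.0994 (SE). ArgRS-m, the mitochondrial arginyl enzyme, is given because its groups did not overlap. It had 521, 511 and 539 in Mad knockdown and 481, 511 and 493 in control knockdown, and its groups were apart by less than 1 normalized count. MetRS-m, the lowest member per kilobase, had 297, 273 and 393 in Mad knockdown and 242, 337 and 289.9 in control knockdown. The groups overlapped, and the interval of -0.31 to 0.59 was wide. In normalized counts, not divided by length, ProRS-m, GluRS-m and ValRS-m had lower means than MetRS-m in both groups. The cytoplasmic MetRS had 3402, 3119 and 3277 in Mad knockdown and 3239.7, 2965 and 3195 in control knockdown, at 0.06.

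LeuRS had 3568, 2783 and 3257 normalized counts in Mad knockdown and 3054, 3239 and 3385 in control knockdown, and LeuRS-m had 1033, 863 and 862 in Mad knockdown and 926, 853 and 967 in control knockdown. PheRS-m had 1954, 1889 and 1668 in Mad knockdown and 1766, 1884 and 1827 in control knockdown. All of these overlapped, at log2 fold changes of -0.02, 0.00 and 0.01. In 10 further members, given here by their means, the groups overlapped without exception, and the Mad knockdown means were 96% to 107% of control. SerRS, the seryl enzyme, averaged 8805 ± 704 normalized counts in Mad knockdown and 8287 ± 601 in control knockdown (SD, n = 3 each), and ThrRS, the threonyl enzyme, 8416 ± 583 in Mad knockdown and 8762 ± 598 in control knockdown. AlaRS, the alanyl enzyme, averaged 9189 ± 691 in Mad knockdown and 8728 ± 231 in control knockdown, and GlyRS, the glycyl enzyme, 6590.4 ± 522 in Mad knockdown and 6363 ± 226 in control knockdown. None of these 4 abundant genes differed by more than its SD in the more variable group. GlnRS, the glutaminyl enzyme, averaged 4477 ± 248 in Mad knockdown and 4520.1 ± 52.3 in control knockdown, ArgRS 3760.2 ± 233 in Mad knockdown and 3716 ± 293 in control knockdown, and ValRS, the valyl enzyme, 4901 ± 365 in Mad knockdown and 4703 ± 135 in control knockdown. Of the mitochondrial genes, AlaRS-m averaged 1736 ± 107 in Mad knockdown and 1721 ± 82.8 in control knockdown, SerRS-m 866 ± 19.5 in Mad knockdown and 883 ± 51.1 in control knockdown, and ValRS-m 256 ± 18.3 in Mad knockdown and 238 ± 22.8 in control knockdown. The largest absolute log2 fold change among these 10 was 0.10, for ValRS-m. Leaving aside HisRS, IleRS-m, TrpRS-m, GluProRS and AspRS, the Mad knockdown mean of the other 30 members was 92.3% to 112% of the control mean.

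The proportion of the subunits of one enzyme differed between the groups by less than the spread between replicates. In phenylalanyl-tRNA synthetase, alpha-PheRS, the catalytic subunit, had 3370.3, 2696 and 3265 in Mad knockdown and 2872, 2999 and 3144 in control knockdown, and beta-PheRS 3121, 2712 and 2937 in Mad knockdown and 2586, 2969.6 and 2984 in control knockdown. Their ratio per kilobase was 1.22 ± 0.0701 in Mad knockdown and 1.22 ± 0.0585 in control knockdown (SD, n = 3 each). By structural class, the median log2 fold change was 0.01 over 18 class I genes, 11 of them above 0, and 0.04 over 16 class II genes, 12 of them above 0. GluProRS belongs to both classes and is in neither count.

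Of the cytoplasmic genes, the 8 whose enzymes form the multisynthetase complex in mammals are ArgRS, AspRS, GlnRS, GluProRS, IleRS, LeuRS, LysRS and MetRS. Their median log2 fold change was -0.06 with 6 of 8 below 0, and that of the other 12 cytoplasmic genes was 0.05 with 10 of 12 above 0. None of the 8 was called, against 2.59% of tested genes, and none had an unadjusted limma p under 0.05, against 19%. The difference between the sets was not tested. With 1 library left out the median of the 8 was lowest without Mad knockdown replicate 1, at -0.12 with 7 below 0. It was highest without Mad knockdown replicate 2, at 0.0053 with 4 below 0. The median of the other 12 moved in the same direction between these fits, from 0.01 to 0.12. In every fit with 1 library left out the median of the 8 was below that of the other 12. The scaffold genes had like levels in the groups. AIMP1 averaged 1565 ± 116 normalized counts in Mad knockdown and 1589 ± 67.6 in control knockdown (SD, n = 3 each), and AIMP2 averaged 3286 ± 329 in Mad knockdown and 3129.5 ± 136 in control knockdown. AIMP3 averaged 1729 ± 83.2 in Mad knockdown and 1627 ± 84.2 in control knockdown. Their intervals all lay within 1.5-fold. Per kilobase they stood at 1510.3, 2858 and 2339.9 in Mad knockdown and 1534, 2721 and 2202 in control knockdown, within the range of the cytoplasmic enzymes.

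The libraries differed in a way that most members shared. Mad knockdown replicate 2 was the lowest of its group for 23 of 35 members, 16 of 20 cytoplasmic and 7 of 15 mitochondrial, and the highest for 4, TyrRS, HisRS, AspRS and GluRS-m. Mad knockdown replicate 1 was the highest for 23. In the control knockdown, replicate 1 was the lowest for 22 and replicate 3 the highest for 23. The median log2 deviation of the cytoplasmic genes from their group mean was 0.08, -0.11 and 0.02 in Mad knockdown replicates 1, 2 and 3, and -0.04, 0.00 and 0.05 in control knockdown replicates 1, 2 and 3. For the mitochondrial genes it was 0.07, -0.08 and 0.02 in Mad knockdown and -0.08, -0.01 and 0.08 in control knockdown. The median over all tested genes was between -0.0035 and 0.0074 in every library. The share of all tested genes that were lowest or highest in each library is not given here. Mad knockdown replicate 2 also had the lowest muscle marker sum, 1138102, while control knockdown replicate 1, low for the synthetases in its group, had the highest, 3369525. The part of muscle content in these deviations was not tested.

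**Figure D4:**
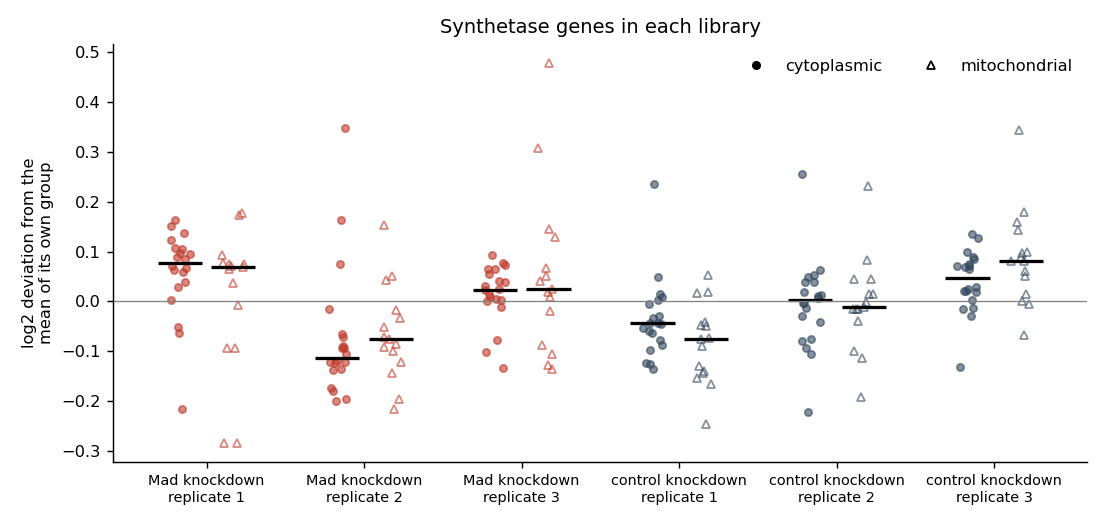
Log2 deviation of each synthetase gene from the mean of its own group, by library, with cytoplasmic genes as filled circles, mitochondrial genes as open triangles and black bars at the medians. The cytoplasmic median is lowest in Mad knockdown replicate 2, at -0.11, and highest in Mad knockdown replicate 1, at 0.08, beside a median log2 fold change between the groups of 0.03.

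The summed level showed the same. The 20 cytoplasmic genes summed to 112185, 103449 and 108970 normalized counts in Mad knockdown and 102574, 106286 and 108926 in control knockdown, at means of 108201 ± 4419 in Mad knockdown and 105929 ± 3191 in control knockdown (SD, n = 3 each). The 15 mitochondrial genes summed to 15127, 13757 and 14676 in Mad knockdown and 13762, 14355 and 14999 in control knockdown. Both sums overlapped between the groups and were 102% and 101% of the control mean. Per 1000000 counts of the library, the cytoplasmic genes took 965 ± 59.4 in Mad knockdown and 917 ± 45.3 in control knockdown, and the mitochondrial genes 129 ± 8.93 in Mad knockdown and 125 ± 7.74 in control knockdown.

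Genes that work with the synthetases were taken from 6 lists: complex scaffolds, synthetase partners, cytoplasmic elongation and release factors, mitochondrial translation factors, amino acid starvation and integrated stress response, and tRNA modification. They held 49 genes in the table, of which 48 were tested and GatC was listed at 0 in every library. No gene was called by limma, beside 2.59% of all tested genes, or by edgeR, beside 2.44%. DESeq2 called 2 of 48, beside 9.86% of all genes. With an unadjusted limma p under 0.05 there were 6, 3 higher and 3 lower, beside 8.31% of tested genes higher and 10.7% lower. Their groups did not overlap for 13 of 48 genes, beside 24.6% of all tested genes, and the median log2 fold change was -0.02 over the 48.

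Among the partners, Slimp, a paralogue of SerRS-m without aminoacylating activity, had 336, 346 and 379.6 normalized counts in Mad knockdown and 359, 385 and 429 in control knockdown. The groups overlapped, at a log2 fold change of -0.14 ± 0.113 (SE). The ratio of Slimp to SerRS-m per kilobase was 0.682 ± 0.0553 in Mad knockdown and 0.736 ± 0.0245 in control knockdown (SD, n = 3 each). GatA and GatB, chosen here after their values were seen, are subunits of the amidotransferase that acts on mitochondrial glutamyl-tRNA. Their ratio per kilobase was 0.896, 1.08 and 1.10 in Mad knockdown and 0.775, 0.759 and 0.782 in control knockdown, which do not overlap. GatA alone had a log2 fold change of 0.24 and GatB of -0.17, with limma adjusted p-values of 0.326 and 0.593.

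The list of 9 cytoplasmic elongation and release factors had 4 estimates above 0 and 5 below, with a median of -0.03. The groups did not overlap for 5 of them, against 24.6% of all tested genes. Mad knockdown was above in 2, against 11.6% of tested genes, and below in 3, against 13%. eEF1alpha1, which delivers charged tRNA to the ribosome, averaged 1112351 ± 38566 normalized counts in Mad knockdown and 1262055 ± 87608 in control knockdown (SD, n = 3 each). eEF2, which moves the ribosome along, averaged 376986 ± 12322 in Mad knockdown and 432098 ± 18615 in control knockdown. Both had every Mad knockdown library below every control library, at log2 fold changes of -0.18 and -0.20, with limma adjusted p-values of 0.625 and 0.412. The third below was eEF1gamma, at -0.18. The 2 with Mad knockdown above were eEF1beta, an exchange factor for eEF1alpha1, at 0.20, and the release factor eRF3 at 0.14, with limma adjusted p-values of 0.347 and 0.231. These 5 genes were chosen after their values were seen. The 8 mitochondrial translation factors had a median of -0.02, with all intervals within 1.5-fold, and the 9 genes of tRNA modification had a median of 0.02.

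Gcn2 encodes the kinase that senses uncharged tRNA and phosphorylates eIF2alpha. It had 2520.3, 2034 and 2298 normalized counts in Mad knockdown and 2622, 2873 and 3261 in control knockdown, every Mad knockdown library below the control range. Its log2 fold change was -0.35 ± 0.112 (SE), with an unadjusted p of 0.0170 and an adjusted p of 0.161 in limma. The gene crc, which encodes the fly ATF4 whose translation rises in that response, averaged 23782 ± 854 in Mad knockdown and 24482 ± 803 in control knockdown (SD, n = 3 each), at -0.04 ± 0.0600 (SE) with an interval of -0.19 to 0.10. Thor, the 4E-BP of the fly, had 42085, 32284 and 51392 in Mad knockdown and 32190.1, 52391 and 66025 in control knockdown. The Thor libraries ranged widely within each group, and the interval ran from -0.91 to 0.46.

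Genes of serine and one-carbon metabolism stood on the same list. Nmdmc, a mitochondrial folate enzyme, had 27031, 42998 and 29855 normalized counts in Mad knockdown and 18372, 15578 and 20156 in control knockdown. The groups were apart, at 0.86 ± 0.186 (SE) on the log2 scale with a limma adjusted p of 0.0666, while DESeq2 called it at an adjusted p of 1.04e-04. Shmt, the serine hydroxymethyltransferase, had 22114, 29455 and 25259 in Mad knockdown and 31136, 34040.2 and 30338 in control knockdown. Its groups were apart with Mad knockdown below, at -0.32 ± 0.113 (SE) with a limma adjusted p of 0.197. The Mad knockdown means of aay, CG11899 and CG6287, on the same list, were 113%, 106% and 103% of control with overlapping groups. Shmt and these 3 genes were chosen after their values were seen. AsnS, the asparagine synthetase that makes the free amino acid and is no tRNA synthetase, had 957, 1348 and 1295 in Mad knockdown and 2687, 1505 and 1693 in control knockdown. The AsnS groups were apart with Mad knockdown below, at -0.68 ± 0.239 (SE) with an adjusted p of 0.198 in limma and 0.0318 in DESeq2. The Mad knockdown mean was 61.2% of control for AsnS, 109% for AsnRS and 112% for AsnRS-m, and none of these 3 was called by limma. The list as a whole had 8 estimates above 0 and 7 below, with a median of 0.04, so its members did not share a direction. Every Mad knockdown library was above the control range for 3 genes, Nmdmc, eIF2beta and eIF2gamma, against 11.6% of tested genes. It was below for 3, Gcn2, Shmt and AsnS, against 13%. An unadjusted limma p under 0.05 was found for 2 higher and 3 lower genes, against 8.31% and 10.7% of tested genes. The eIF2 genes were named after their values were seen.

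**Figure D5:**
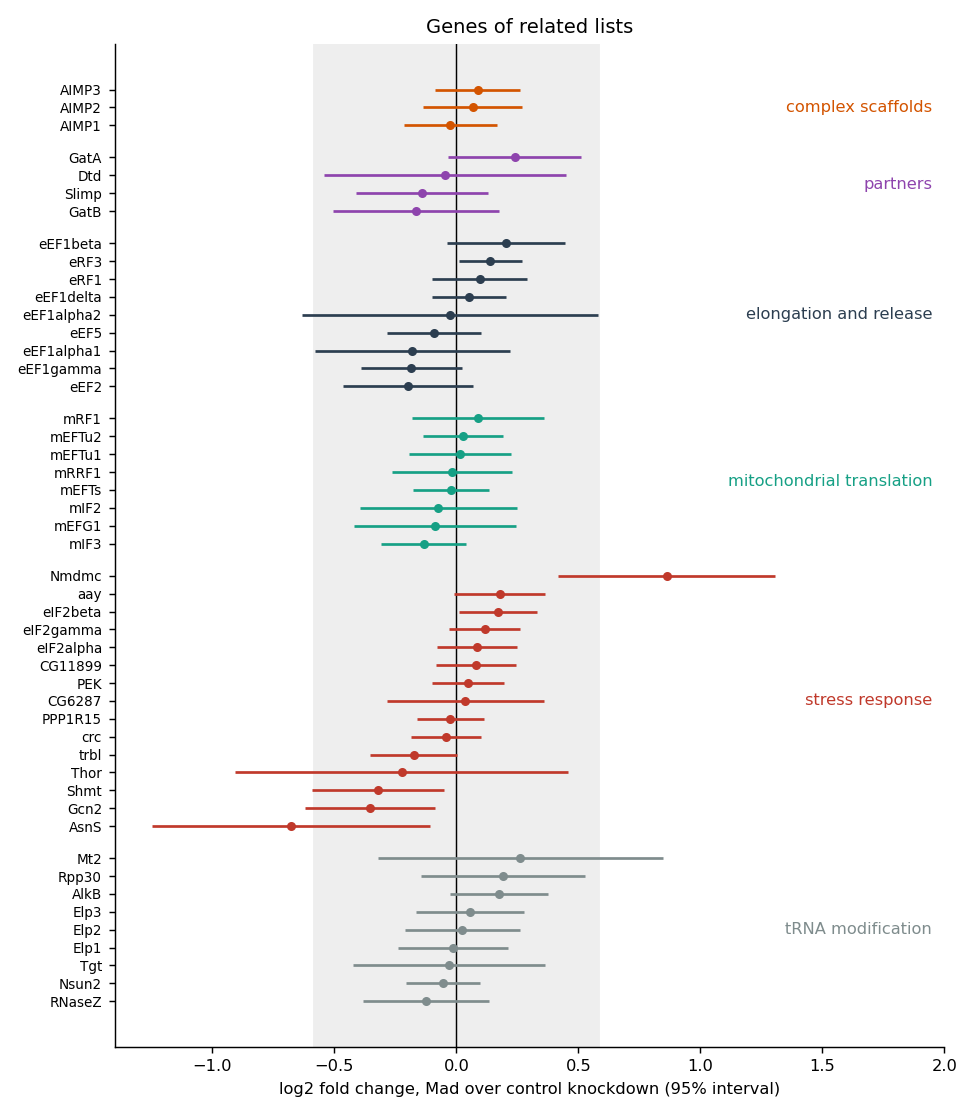
Log2 fold change, Mad over control knockdown, with 95% intervals from limma, for the 48 tested genes of the 6 related lists, one colour a list, with the grey band marking changes within 1.5-fold. Nmdmc at 0.86 and AsnS at -0.68 lie farthest from 0, and 41 of 48 intervals lie wholly within the band.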

How the data were processed

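Poly(A)-selected RNA of 6 samples was sequenced in a run described as PE50, per the labels' protocols. The authors deposited normalized counts, a signal per gene and library. Every value was a whole number of reads (100% within a tolerance of 0.001) divided by 1 size factor per library. The submitters' processing notes name the build dm6; aligner, counter and strand setting are not given in the sources used here. Exon lengths and coordinates are from Ensembl 115 (BDGP 6.54).

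log2(normalized count + 1) of 10348 genes was fitted in limma 3.58.1 (R 4.3.3; lmFit, eBayes with trend), Mad over control knockdown, with two-sided p-values and Benjamini-Hochberg adjustment over all genes. Such fold changes understate changes of low genes. Alternatives included edgeR 4.0.16 and DESeq2 1.42.0 on the recovered counts. The fitting was tested on simulated data. Members, lists and alternatives were chosen with earlier results of these data known. By rule, library values are given for the 6 genes of each compartment with the largest changes, the highest and lowest per kilobase, and their partners; others were chosen after their values were seen. Listed names not found in the table (mEFG2, Ctu1, Ctu2, Trmt1) were not used.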

Additional observations from a re-analysis of the deposited data

How the results depend on the processing

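Across 19 alternative fits, the count of synthetase genes called was 0 in every one but DESeq2, where it was 1, HisRS. HisRS kept a log2 fold change of 0.33 to 0.54 with adjusted p-values of 0.0461 to 0.358, and IleRS-m one of -0.43 to -0.27 with adjusted p-values of 0.106 to 0.384. Of the 35 genes, 14 had an estimate on the other side of 0 in at least 1 fit, none of them called, and 21 in none. Of related genes, DESeq2 called 2 and the fit with the trend on length and level removed called 1, Nmdmc. The median of the mitochondrial genes was 0.058 with quantile normalization, 0.065 with scaling to the 75th percentile, 0.055 with TMM, 0.058 in edgeR and 0.056 with the trend removed. Leaving out 1 library gave 0.012 to 0.099 for it and -0.01 to 0.09 for the cytoplasmic median. Scalings and trend removal moved the median of all tested genes to at most 0.035.

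Mad kept its direction but not its call without the eBayes trend (-0.57, adjusted p = 0.0981) and in edgeR (-0.55, adjusted p = 0.0516). Without single libraries its log2 fold change was -0.66 to -0.47, and the call was lost in 5 of 6 such fits, all but that without Mad knockdown replicate 2. Over all genes, limma called 268, against 998 in DESeq2, 138 without the trend and 43 to 193 without 1 library. Samples with the same replicate number did not deviate together (correlations of -0.14, -0.07 and 0.04), so the number was not taken as a pairing. With the replicate block 117 genes were called, no synthetase or related gene among them, and Mad had -0.57 (adjusted p = 0.0787). The lowest member count in a library was 141 reads. The part of counting error in the spread of the low mitochondrial genes was not tested. With 3 samples per group, the limma SE of members ran from 0.0577 for CysRS to 0.225 for ProRS-m. Differences too small to be called may therefore be present.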
